A study of Mus musculus with 4 samples.

Results

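Serotonin receptor genes were described across the neurons and glia of the BNST (bed nucleus of the stria terminalis), which belongs to the extended amygdala of the mouse forebrain. The set held 6 listed genes, Htr1a, Htr1b, Htr2a, Htr2c, Htr4 and Htr7, of the 20136 genes named in the tables, and each of them had at least 1 molecule in each library. The list was taken as given, with earlier results of these data known, and its rule uses no measured value. All samples belonged to a single group: 4 libraries of punched BNST tissue from male wildtype C57BL/6J mice, each made from a pool of 6 mice, with no treatment, transgene or control group. Drop-seq was used, a method that seals single cells in droplets with beads whose primers bear a cell barcode and a unique molecular identifier (UMI), so that molecules rather than reads are counted. The labels concern BNST neurons with Pnoc, which encodes prepronociceptin.

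In GENCODE vM21 (GRCm38) Htr1a is a gene of 1 exon on chromosome 13 (105443639 to 105448122, plus strand), and Htr2a lies on chromosome 14 (74640840 to 74709494, plus strand). Htr2c spans 234765 bases of chromosome X (146962513 to 147197277, plus strand), with 8 small RNA genes inside it on the same strand. Htr4 lies on chromosome 18 (62324204 to 62496577, plus strand) and Htr7 on chromosome 19 (35958734 to 36057507, minus strand). Htr1b lies on chromosome 9 (81628291 to 81633828, minus strand) and is overlapped in part by D430036J16Rik, an antisense RNA gene on the plus strand (81631551 to 81645156).

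Serotonin reaches the BNST from the raphe nuclei of the brainstem, and the receptors that receive it differ in the G protein they engage. The Htr1a and Htr1b receptors couple to Gi/o, which lowers cyclic AMP and opens potassium channels, with Htr1b often placed on axon terminals. The Htr2a and Htr2c receptors couple to Gq, which activates phospholipase C, and Htr2c in the BNST is known for its part in anxiety-related behaviour. The Htr4 and Htr7 receptors couple to Gs, which raises cyclic AMP. Transcripts of Htr2c are edited by adenosine deaminases that act on RNA.

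The promoters of Htr2c and Htr1b are printed because these 2 receptors could be tested in the model across the larger GABAergic subtypes. Each is the 250 bases before the start of the RefSeq model (GRCm38.p6), with every CG in capitals, at chrX:146962263-146962512 (plus strand) and chr9:81633833-81634082 (minus strand).
Htr2c: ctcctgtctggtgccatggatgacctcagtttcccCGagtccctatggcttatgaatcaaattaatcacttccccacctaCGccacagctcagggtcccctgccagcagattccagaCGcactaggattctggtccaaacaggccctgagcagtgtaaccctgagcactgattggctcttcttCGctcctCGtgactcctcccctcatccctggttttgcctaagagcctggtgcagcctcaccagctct
Htr1b: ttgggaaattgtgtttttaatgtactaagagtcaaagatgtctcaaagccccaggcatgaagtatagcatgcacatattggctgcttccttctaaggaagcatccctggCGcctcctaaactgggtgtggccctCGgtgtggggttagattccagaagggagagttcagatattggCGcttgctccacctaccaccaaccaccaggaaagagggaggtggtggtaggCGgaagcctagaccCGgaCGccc
The Htr2c promoter holds 5 CG dinucleotides and the Htr1b promoter 6, against a median of 6 over 32851 RefSeq promoters of that length. The other promoters in the table hold 6 (Htr1a), 4 (Htr2a) and 41 (Htr7), and only 1.09% of all promoters hold as many as Htr7. RefSeq gave a promoter for 5 of the 6 receptors.

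The libraries held 1800 to 3600 cell barcodes and 2640399 to 5652342 UMIs each, 14018026 UMIs in all. Barcodes with at least 400 genes and at most 10% mitochondrial UMIs were kept and 58 doublets called by Scrublet were removed, which left 837 to 1281 cells per library (4181 in all, median 1849 UMIs). Cells were put into classes by UMIs of marker genes, with no receptor among the markers. These gates gave 2507 neurons, 918 oligodendrocytes, 387 astrocytes, 72 oligodendrocyte precursor cells (OPC), 82 vascular cells and 10 microglia, and left 205 cells in no class. The 8 neuron markers summed to 11811 CPM (counts per 1000000 UMIs of the class) in neurons and to 219 to 644 CPM in the other classes. Of the neurons, 2150 were GABAergic by Gad1, Gad2 and Slc32a1, 77 were glutamatergic by Slc17a6 and Slc17a7, and 280 passed neither gate. Between 1 and 7 barcode sequences recurred in each pair of libraries, and none of them among kept cells. The spread is that between 4 libraries (SD), and each library counts as 1 replicate. Library 3 stood apart for Htr2c, with 149 CPM in neurons against 70.9 to 82.4 in the other 3, so results on Htr2c are also given without it.

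All 6 receptors were detected almost wholly in neurons. Of 1815 receptor UMIs in the series, 1613 were in gated neurons, 4 in gated non-neuronal cells, 10 in kept cells without a class and 188 in barcodes that were not kept, so that 99.8% of the UMIs in gated cells were neuronal. The 4 exceptions were 2 UMIs of Htr2c and 1 of Htr1b in oligodendrocytes and 1 of Htr2a in a vascular cell. No receptor had a UMI in the 387 astrocytes, where 3 counts of the total would be 8.45 CPM, or in the 72 OPC, where they would be 33.9 CPM. The limits cover counting error only, and those of the small classes lie above the neuronal level of several receptors, so a low level there was not detectable at this depth. The 10 microglia were too few to describe.

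Neurons were compared with all non-neuronal cells of the same library (quasi-likelihood F-test of edgeR, the library as block, p values adjusted by Benjamini-Hochberg over all genes tested). Htr1b, Htr2c and Htr7 passed the filter on low counts and all 3 were higher in neurons, where 36.9% of the 10166 genes tested were called higher. These receptors passed that filter through their neuronal counts, so the calls describe the difference and are not read as independent support for it. Htr2c stood at 95.1 ± 36.3 CPM in neurons (SD, n = 4) against 1.19 in non-neuronal cells, a log2 fold change of 6.23 (SE 0.41, adjusted p = 1.78e-22). With only 2 UMIs outside neurons, the ratio of the summed levels was 93.6 with a 95% exact interval of 25.8 to 774. Without library 3 the log2 fold change was 5.55, also past the threshold. Htr1b stood at 36.6 ± 12.5 against 0.348 CPM, or 5.79 on the log2 scale (SE 0.62, adjusted p = 3.11e-13), with a ratio of 74.6 (13.3 to 2956). Htr7 had 206 UMIs in neurons and 0 in non-neuronal cells (adjusted p = 6.22e-10), which makes it at least 15-fold higher against a floor of 3 counts over all non-neuronal cells. The other 3 receptors were too sparse for the test. Htr1a had 140 UMIs against 0 (at least 10.2-fold higher) and Htr4 38 against 0 (at least 2.76-fold higher). Htr2a had 29 against 1, a ratio of 6.33 with a 95% exact interval of 1.05 to 258. The tests within non-neuronal cells reached none of the receptors.

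**Figure D1:**
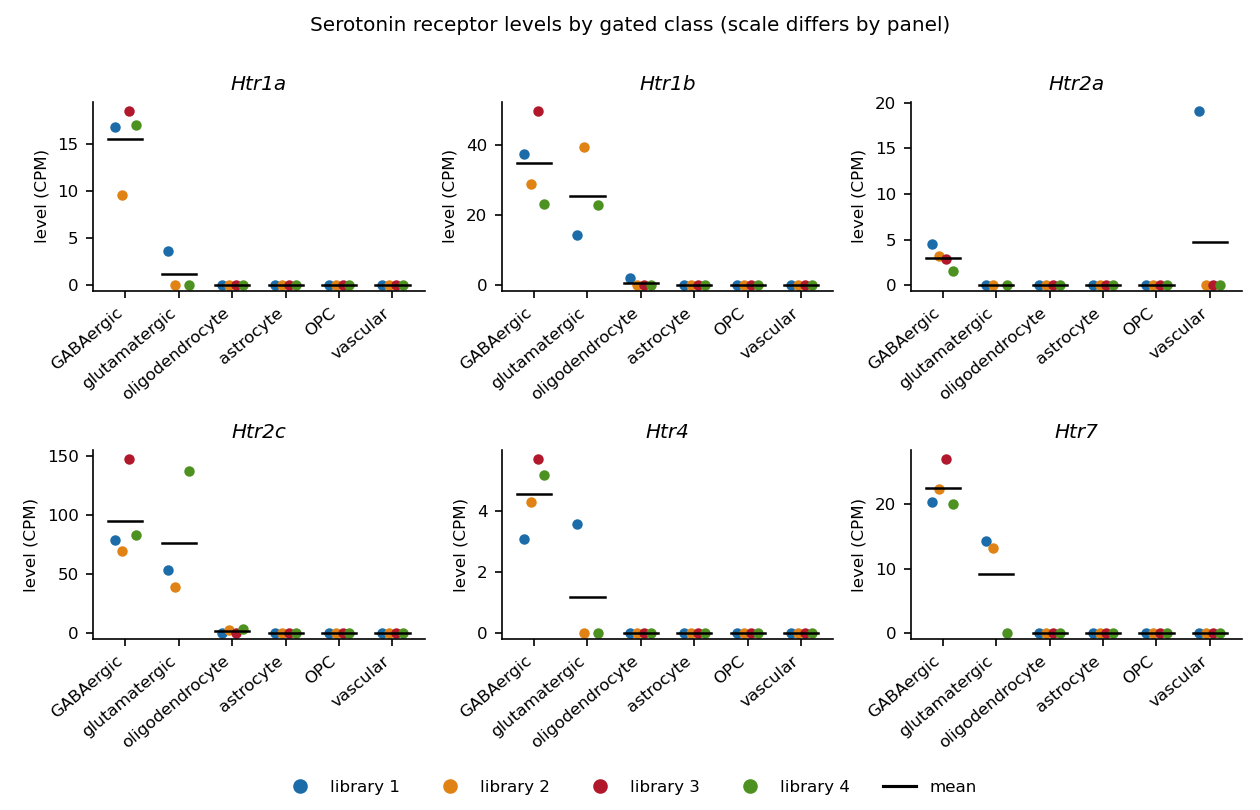
Level of each receptor (vertical axis, CPM, a separate scale in each panel) in the gated classes, with 1 point per library and the mean as a bar. All libraries lie above 0 in GABAergic neurons for all 6 receptors, and astrocytes and OPC lie at 0; the glutamatergic class is shown for the 3 libraries with at least 10 such cells.

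Among the Gi/o-coupled receptors, Htr1b in GABAergic neurons was at 37.4, 28.8, 49.7 and 23.2 CPM in libraries 1 to 4. The highest was library 3 and the lowest library 4. Htr1a was at 16.7, 9.59, 18.5 and 17.0 CPM, with library 2 below the other 3. The Gq-coupled Htr2c was at 79.0, 69.8, 148 and 83.4 CPM, and its mean was 94.97 ± 35.5 CPM with library 3 and 77.4 CPM without it. Its partner in the same family, Htr2a, was rare, with 4.47, 3.20, 2.84 and 1.55 CPM from 29 UMIs in all. The Gs-coupled Htr7 was at 20.4, 22.4, 27.0 and 20.1 CPM, the narrowest relative spread of the 4 receptors with over 100 UMIs. Htr4 was at 3.07, 4.26, 5.68 and 5.15 CPM from 37 UMIs. A UMI count reflects how well the 3' end of a transcript is captured, so these levels are not ranked between receptors.

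A receptor was seen in few cells at a time. Htr2c had a UMI in 469 of 2150 GABAergic neurons (21.8%, exact 95% interval 20.1 to 23.6%), Htr1b in 194 (9.02%), Htr7 in 160 (7.44%), Htr1a in 114 (5.30%), Htr4 in 33 (1.53%) and Htr2a in 26 (1.21%). GABAergic neurons had a median of 3475 UMIs and oligodendrocytes 1385, so shares were also set at 1000 UMIs per cell, leaving out shallower cells. At that depth Htr2c was found in 8.90 ± 2.82% of GABAergic neurons and in 0.172 ± 0.213% of oligodendrocytes, which serve as the background from free RNA. The values for Htr1b were 2.94 ± 0.85% and 0.0574 ± 0.115%. Htr7 was found in 1.77 ± 0.23% of GABAergic neurons and Htr1a in 1.28 ± 0.43%, and neither had a UMI in oligodendrocytes.

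Receptors were seldom seen together in a cell. No receptor had a UMI in 1338 GABAergic neurons (62.2%), 1 receptor in 650, 2 in 144 and 3 or more in 18 (15 cells with 3, 2 with 4 and 1 with 5). Depth moved with the number found: the median was 2784 UMIs in cells with no receptor, 4342 with 1 and 6089 with 2, and its part in the overlap was not tested. Htr2c, the receptor with most positive cells, was found in 24.7% of Htr1b-positive and 21.5% of Htr1b-negative GABAergic neurons, and in 26.3% of Htr7-positive and 21.5% of Htr7-negative ones. Htr1b was found in 16.3% of Htr7-positive and 8.44% of Htr7-negative neurons.

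GABAergic and glutamatergic neurons could be set against each other in the 3 libraries with at least 10 glutamatergic cells. None of the 4 receptors tested passed the threshold by edgeR, where 2.14% of 9381 genes did, and DESeq2 called 0 of them. The 1 receptor with an unadjusted p under 0.05 was Htr1a, at 14.4 CPM in GABAergic and 1.19 CPM in glutamatergic neurons of these libraries (log2 fold change 2.62, SE 1.19, adjusted p = 0.445 by edgeR). It had 1 UMI in all 77 glutamatergic cells against 137 in the GABAergic ones, a ratio of 6.86 (95% exact interval 1.21 to 273). Htr2c stood at 77.4 and 76.8 CPM (log2 fold change 0.37, SE 0.34), Htr1b at 29.8 and 25.5 CPM (0.78, SE 0.54) and Htr7 at 21.0 and 9.14 CPM (0.78, SE 0.70). The standard errors are wide, and the comparison does not show that the classes carry these receptors alike.

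GABAergic neurons were then divided by subtype markers. The gates held 210 neurons with Sst or Npy (somatostatin and neuropeptide Y), 202 with Ppp1r1b or other markers of striatal projection neurons (called striatal-like), 127 with Tac2 or Ebf1, 120 with Crh or Wif1, 117 with Cck or Greb1, 84 with Tshz1 or Foxp2, 76 with Zic1 or Zic4, 71 with Slc17a8 and 54 with Six3. A further 31 with Lhx8 or Rorb and 20 with Prkcd were too few for a test, and 1038 passed no subtype gate. In 1 model over the 9 larger subtypes (edgeR quasi-likelihood F-test), Htr2c and Htr1b, the only receptors with enough UMIs to enter, both differed between subtypes (adjusted p = 0.000396 and 0.000719). Of the 4257 genes tested there, 27.8% were called. Htr2c held without library 3 (adjusted p = 0.0263), and Htr1b fell below the filter without library 1 or without library 3 and was not tested there.

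**Figure D2:**
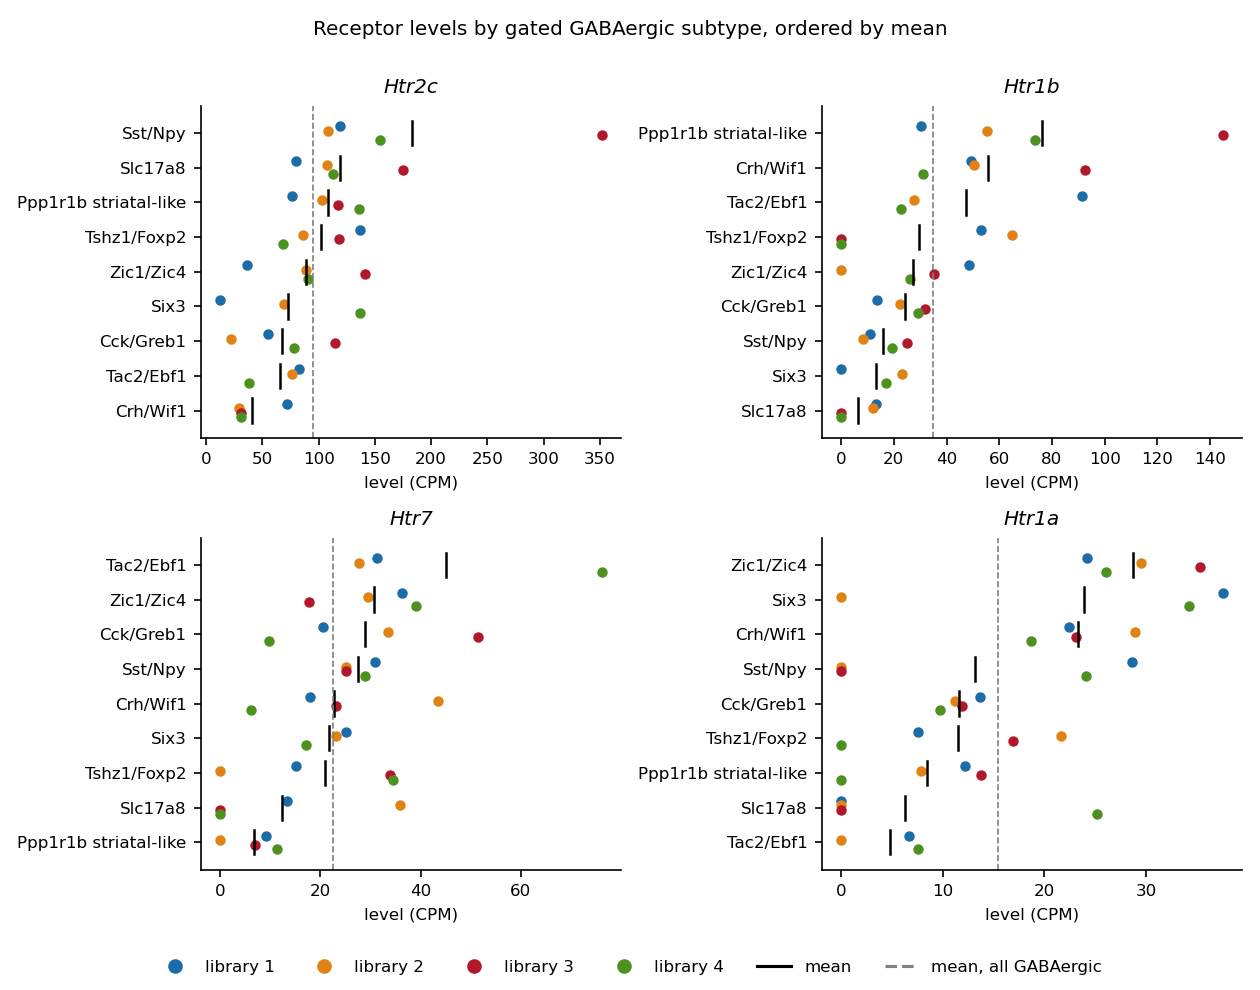
Level of 4 receptors (horizontal axis, CPM) in each GABAergic subtype, ordered by mean, with 1 point per library, the subtype mean as a black bar and the mean over all GABAergic neurons as a dashed line. Among the 9 subtypes shown, Htr2c was highest in Sst/Npy and lowest in Crh/Wif1 neurons, Htr1b was highest in Ppp1r1b striatal-like neurons, and most neighbours in each order overlap.

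Among the 9 subtypes tested, Htr2c had its highest mean in Sst/Npy neurons and its lowest in Crh/Wif1 neurons. In Sst/Npy neurons it was at 119, 109, 352 and 154 CPM in libraries 1 to 4, above the level in all other GABAergic neurons of the same library in 4 of 4. The mean was 183 against 87.7 CPM, a log2 fold change of 0.97 (SE 0.17, adjusted p = 6.58e-05, edgeR), in a fit where 1.63% of 8949 genes were called higher. Without library 3 it was 0.84 (adjusted p = 0.00952). In Crh/Wif1 neurons, which carry the stress peptide gene Crh, Htr2c was at 71.6, 28.9, 30.9 and 31.1 CPM, below the other GABAergic neurons in 4 of 4 libraries. The mean was 40.6 against 100 CPM, a log2 fold change of -1.09 (SE 0.27, adjusted p = 0.00481), where 2.91% of 8583 genes were called lower. Library 1 was the highest of the 4 there. The change was -1.77 without library 1 (adjusted p = 0.00129) and -0.74 without library 3 (adjusted p = 0.166), so the call rested on library 3.

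The other 7 subtypes tested lay between these for Htr2c and were not called; in the fits of Cck/Greb1, Zic1/Zic4, Tshz1/Foxp2 and Six3 neurons, where no receptor of the 6 was called, 5.51%, 1.87%, 1.06% and 0.35% of genes were. Slc17a8 neurons, which carry the vesicular glutamate transporter VGLUT3, followed at 119 ± 40.4 CPM (log2 fold change 0.32, SE 0.28, higher in 4 of 4 libraries, adjusted p = 0.722). Ppp1r1b striatal-like (108 ± 25.2 CPM), Tshz1/Foxp2 (103 ± 30.6), Zic1/Zic4 (89.3 ± 42.9), Six3 (73.0 ± 62.3, 3 libraries), Cck/Greb1 (67.5 ± 39.0) and Tac2/Ebf1 (65.6 ± 24.0, 3 libraries) came next. Each of these stood within 1 SD of its neighbour in the order, and only the step from Tac2/Ebf1 to Crh/Wif1 was as large as the larger SD of the pair. In Prkcd neurons, a gate of 20 cells outside the test and this order, with a median of 5482 UMIs, Htr2c had 0 UMIs, as had Htr1a, Htr1b and Htr7. A count of 0 in that gate allows up to 26.3 CPM, below the Htr2c level in all GABAergic neurons (94.97 CPM) but above that of Htr7 (22.5 CPM) and Htr1a (15.4 CPM).

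Htr1b showed another order. In Ppp1r1b striatal-like neurons it was at 30.5, 55.3, 145 and 73.6 CPM, above the other GABAergic neurons in libraries 2 to 4 and not in library 1. The mean was 76.1 against 30.5 CPM, a log2 fold change of 1.11 (SE 0.31, adjusted p = 0.0123), where 6.48% of 8714 genes were called higher. It was 0.73 without library 3 (adjusted p = 0.221), 0.87 without library 4 (adjusted p = 0.121) and 1.74 without library 1 (adjusted p = 0.000339). In Crh/Wif1 neurons Htr1b was at 49.2, 50.6, 92.6 and 31.1 CPM, higher than elsewhere in 4 of 4 libraries, but did not pass (log2 fold change 0.73, SE 0.31, adjusted p = 0.192). In Tac2/Ebf1 neurons, where Tac2 encodes neurokinin B, Htr1b was 1.11 higher on the log2 scale (SE 0.31, adjusted p = 0.0257, 1.2% of 9323 genes called higher). That call came from library 1, which gave 41 of the 48 UMIs (91.5 CPM, against 27.6 and 22.8 in libraries 2 and 4). Only 1 of 3 libraries was higher, and without library 1 the value was -0.021 (adjusted p = 0.997).

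At the low end, Htr1b had 2 UMIs in the 71 Slc17a8 neurons (13.3, 11.9, 0 and 0 CPM), below the other GABAergic neurons in 4 of 4 libraries. The mean was 6.30 against 36.1 CPM, a log2 fold change of -2.56 (SE 0.80, adjusted p = 0.0422, 2.49% of 8151 genes called lower). The summed level elsewhere was 5.75 times that in Slc17a8 neurons, with an exact 95% interval of 1.58 to 47.7. With so few UMIs the call was lost without any 1 of the libraries, with adjusted p of 0.0818, 0.0567, 0.379 and 0.142 without libraries 1 to 4. Sst/Npy neurons, where Htr2c was highest, had Htr1b at 11.0, 8.35, 25.1 and 19.3 CPM, lower than elsewhere in 4 of 4 libraries and short of the threshold (log2 fold change -1.32, SE 0.40, adjusted p = 0.0567).

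Htr7 was called in 1 subtype. In Ppp1r1b striatal-like neurons it was at 9.15, 0, 6.90 and 11.3 CPM, lower than in the other GABAergic neurons in 4 of 4 libraries. The mean was 6.84 against 23.9 CPM, a log2 fold change of -1.57 (SE 0.53, adjusted p = 0.0441, 6.06% of genes called lower). The call rested on 6 UMIs and was lost without any 1 of the libraries (adjusted p of 0.131, 0.136, 0.127 and 0.0673 without libraries 1 to 4). The highest mean was in Tac2/Ebf1 neurons, at 31.2, 27.6 and 76.1 CPM in libraries 1, 2 and 4, higher than elsewhere in 3 of 3 (log2 fold change 1.12, SE 0.39, adjusted p = 0.122). Htr1a was called in none of the 8 subtypes where it was tested, by edgeR or DESeq2, and 1 of them, Tac2/Ebf1, had an unadjusted p under 0.05 (log2 fold change -1.54, adjusted p = 0.342). Its highest mean was in Zic1/Zic4 neurons, at 24.2, 29.5, 35.3 and 26.0 CPM from 2 UMIs in each library (log2 fold change 0.85, SE 0.66, adjusted p = 0.816). Htr2a and Htr4 had too few UMIs to be tested in any subtype.

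**Figure D3:**
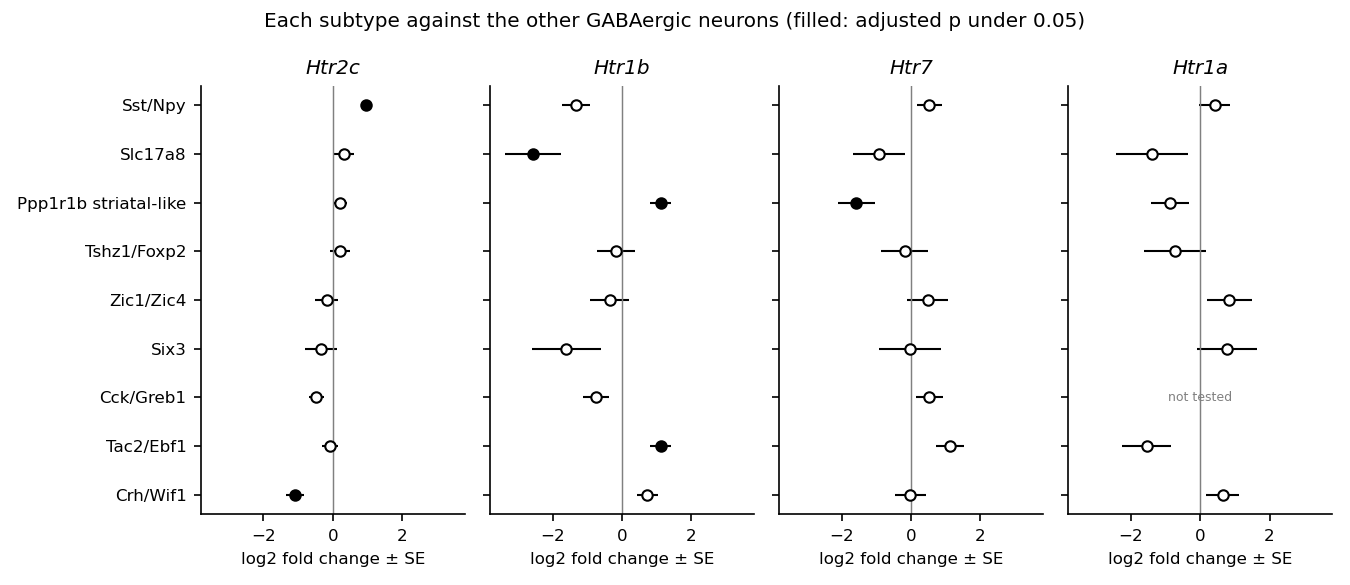
Log2 fold change (horizontal axis, ± SE) of 4 receptors in each GABAergic subtype against the other GABAergic neurons, with filled points where the adjusted p was under 0.05. There are 6 filled points: Htr2c in Sst/Npy and Crh/Wif1, Htr1b in Slc17a8, Ppp1r1b striatal-like and Tac2/Ebf1, and Htr7 in Ppp1r1b striatal-like neurons.

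Genes that go with a receptor were sought by summing, in each library, the GABAergic neurons with and without a UMI of it. This was done for Htr2c, Htr1b and Htr7, since Htr1a had only 16 positive neurons in library 2. Besides the receptor itself, which the division fixes, 68 genes were called for Htr2c, 73 for Htr1b and 81 for Htr7, where with the receptor counted 0.747%, 0.818% and 0.923% of genes were called. Positive neurons were deeper, with medians of 4314 against 3248 UMIs for Htr2c, 5636 against 3311 for Htr1b and 5838 against 3331 for Htr7. With 1 negative neuron of the same depth for each positive one, 50, 19 and 9 genes were called, of which 37, 12 and 8 were also among the first. These matched fits tested 7171, 4966 and 4371 genes, against 9237, 9043 and 8884 in the first ones. They held 469, 194 and 160 negative neurons, against 1681, 1956 and 1990, so the numbers of genes called are not directly comparable. None of the other receptors was called by edgeR or DESeq2 in any of the 3 fits on all negative neurons, which tested 3 other receptors each. The only ones with an unadjusted p under 0.05 were Htr1b in Htr2c-positive neurons (log2 fold change -0.56, SE 0.22, adjusted p = 0.420) and in Htr7-positive neurons (0.65, SE 0.26, adjusted p = 0.338).

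Htr2c-positive neurons were poor in Prkcd, Gal and Avp and rich in Slc17a8 and Ebf1. Prkcd, the gene of protein kinase C delta, was at 0, 5.46, 5.69 and 10.02 CPM in Htr2c-positive neurons of libraries 1 to 4 and at 23.1, 57.0, 39.7 and 48.0 CPM in Htr2c-negative ones. The groups did not overlap, but Prkcd was picked for a large change of the same direction in 4 of 4 libraries, which favours such a gap. Prkcd was lower by a log2 fold change of -3.22 (SE 0.36, adjusted p = 1.18e-09), which was -3.17 (adjusted p = 8.87e-06) at matched depth. Gal, the gene of galanin, fell by 2.5 on the log2 scale (SE 0.16, adjusted p = 1.92e-20) and by 2.00 at matched depth. Avp, the gene of vasopressin, had 10 UMIs in positive and 950 in negative neurons (log2 fold change -5.13, adjusted p = 1.99e-25). These peptides sat in few cells: 10 neurons held 92.9% of the Avp and 69.0% of the Gal UMIs, and Avp was too sparse to be tested at matched depth. Slc17a8 was at 35.1, 106, 129 and 183 CPM in positive and at 21.5, 48.4, 58.9 and 46.7 CPM in negative neurons. It was higher in 4 of 4 libraries (log2 fold change 1.30, SE 0.16, adjusted p = 2.04e-08; 1.09 at matched depth, adjusted p = 0.00158). Ebf1, a transcription factor gene, rose by 1.48 (SE 0.24, adjusted p = 2.80e-05; 1.25 at matched depth).

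The other genes with the largest changes for Htr2c held less well. Chd7 (a chromatin remodeller), Gpd1 (glycerol-3-phosphate dehydrogenase) and Adamts5 (a matrix protease) rose by 1.58, 1.55 and 1.30, and Spata13 and Vip (vasoactive intestinal peptide) fell by 1.92 and 1.74. Chd7 was lost without library 1 (adjusted p = 0.0879), Gpd1 and Adamts5 without library 4 (0.386 and 0.191), Spata13 without library 1 or library 4 (0.238 and 0.0833) and Vip without library 2 (0.0671). Of the 10 genes, 5 passed without any 1 of the libraries: Slc17a8, Ebf1, Avp, Prkcd and Gal. Leaving out a library does not answer for the few cells that held most Avp and Gal UMIs, and Avp was found in 23 GABAergic neurons in all. Vip was found in 15, with 96.5% of its UMIs in 10 of them.

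Htr1b-positive neurons had little Slc17a8, with 6 UMIs against 463 in negative neurons. It was at 3.12, 16.2, 0 and 0 CPM in positive and at 30.6, 66.3, 103 and 80.4 CPM in negative neurons (log2 fold change -3.53, SE 0.42, adjusted p = 3.60e-07, edgeR). Slc17a8 was picked for a large change of the same direction in all libraries, which favours such a gap between the groups. Nfix, a transcription factor gene, fell by 2.97 on the log2 scale, and St18, another, was called lower with 1 UMI against 198. Crhbp, which encodes the binding protein of the Crh peptide, fell by 2.93. Scn4b, a sodium channel subunit, was at 12.5, 20.2, 32.9 and 50.8 CPM in positive and at 2.72, 0.614, 7.72 and 8.87 CPM in negative neurons (log2 fold change 2.53, SE 0.45, adjusted p = 0.000848). Chst15 and Hs3st5, both sulfotransferases, rose by 1.22 and 1.45, and Nexn (the actin-binding nexilin) by 1.68. Only Chst15 of these could be tested at matched depth, where it rose by 1.55 (adjusted p = 0.0444). The calls of Scn4b, Slc17a8, Nfix and Crhbp held without any 1 of the libraries. Without library 1 the adjusted p was 0.0533 for St18, 0.163 for Chst15 and 0.385 for Hs3st5. Without library 3 it was 0.0587 for Chst15 and 0.12 for Nexn, which also failed without library 2 (0.0796).

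The same comparison named D430036J16Rik, the antisense gene over Htr1b. It was at 54.6, 48.6, 16.5 and 14.5 CPM in Htr1b-positive and at 12.6, 14.7, 12.9 and 13.9 CPM in negative neurons, so that libraries 1 and 2 carried the difference (log2 fold change 1.55, SE 0.33, adjusted p = 0.00664). The adjusted p was 0.722 without library 1 and 0.0845 without library 2. The strand used in counting is not given in the sources used here, so reads of the shared stretch cannot be told apart between the genes. An exon of D430036J16Rik that lies inside the Htr1b coding sequence (chr9:81632358-81632480, plus strand, GENCODE vM21 on GRCm38) is printed to show that stretch, with the 63 bases common to both transcripts that use it in capitals.
D430036J16Rik exon: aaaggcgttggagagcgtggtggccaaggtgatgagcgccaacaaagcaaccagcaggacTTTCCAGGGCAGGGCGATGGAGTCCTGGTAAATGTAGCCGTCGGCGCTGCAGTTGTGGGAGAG
The last exons of all 5 annotated D430036J16Rik transcripts lie outside Htr1b, at least 10229 bases upstream of its 5' end. Drop-seq primes from the poly(A) tail at the 3' end, and where in the gene these UMIs fell was not tested.

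Htr7-positive neurons were rich in Tac2 and poor in Ppp1r1b and Crym. Tac2 was at 1514, 617, 617 and 1437 CPM in Htr7-positive and at 316, 340, 97.5 and 325 CPM in negative neurons, which gave 1.99 on the log2 scale (SE 0.13, adjusted p = 5.14e-15) and 2.30 at matched depth (adjusted p = 4.99e-11). Every library of the positive neurons lay above every library of the negative ones, but Tac2 was picked for a large change in the same direction throughout. Ppp1r1b, the gene of DARPP-32, was at 16.8, 4.93, 0 and 29.3 CPM in positive and at 85.7, 73.5, 120 and 157 CPM in negative neurons (log2 fold change -2.90, SE 0.30, adjusted p = 6.46e-09). Crym (mu-crystallin) fell by 2.95, Tshz1 (a zinc finger transcription factor) by 2.24 and Ramp1 (a subunit of the receptor for calcitonin gene-related peptide) by 2.11, and these held without any 1 of the libraries. The neurons of these comparisons are also those of the subtype gates, so the values for Tac2, Ppp1r1b, Prkcd, Slc17a8, Ebf1 and Tshz1 are not independent of the receptor levels in the gates that use those genes.

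Pkib, an inhibitor of protein kinase A, rose by 1.32 in Htr7-positive neurons (SE 0.23, adjusted p = 0.000426) and by 1.2 at matched depth, where it did not pass (adjusted p = 0.0647). Nxph2 (neurexophilin 2) rose by 2.02, Glra1 (a glycine receptor subunit) by 1.54 and Pou3f2 (a transcription factor) by 1.28, while Prkcd fell by 2.37. Nxph2 was lost without library 1 (adjusted p = 0.145), Pou3f2 without library 3 (0.0653), Prkcd without library 1 or library 3 (0.184 and 0.170) and Glra1 without library 2, 3 or 4 (0.0675, 0.265 and 0.0649).

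**Figure D4:**
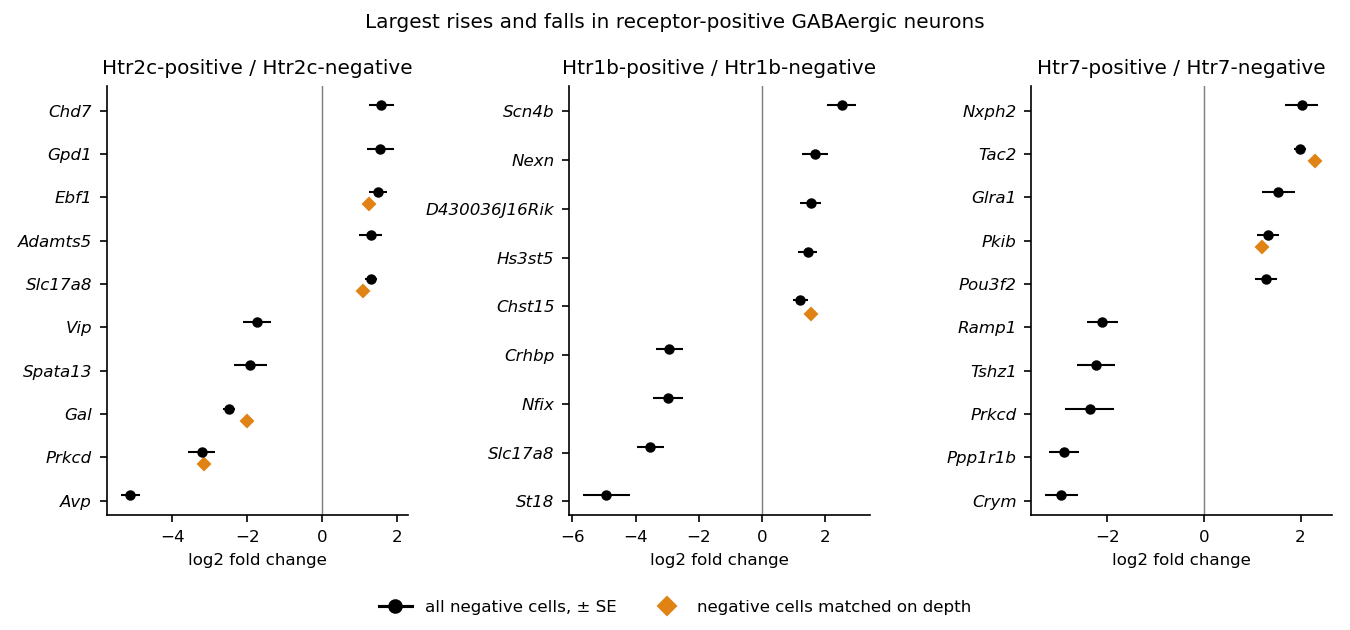
Log2 fold change (horizontal axis, ± SE) of the genes with the largest rises and falls among called genes (up to 5 each way) in GABAergic neurons with a UMI of Htr2c, Htr1b or Htr7 against those without. Orange diamonds give the value against negative neurons of the same depth and are absent where a gene fell below the count filter there; Prkcd, Gal, Slc17a8 and Ebf1 for Htr2c, Chst15 for Htr1b and Tac2 and Pkib for Htr7 have one.

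The neurons with Pnoc, the gene the series concerned, did not differ in any receptor at the adjusted threshold. With 459 Pnoc-positive and 1691 Pnoc-negative GABAergic neurons, 2.72% of 9661 genes were called and none of the 4 receptors tested, by edgeR or DESeq2, while 2 receptors had an unadjusted p under 0.05. Htr1a was at 24.8 against 12.2 CPM, higher in 4 of 4 libraries (log2 fold change 0.96, SE 0.29, adjusted p = 0.0744, edgeR). With no filter on low counts its adjusted p was 0.0423, past the threshold. Htr2c was at 74.2 against 102 CPM, lower in 4 of 4 libraries (log2 fold change -0.40, SE 0.17, adjusted p = 0.299). Htr1b (0.33, SE 0.20) and Htr7 (0.51, SE 0.25) had smaller differences relative to their errors. Pnoc-positive neurons had a median of 5063 UMIs and Pnoc-negative ones 3065, and at matched depth Htr2c gave -0.37 (adjusted p = 0.469) and Htr1a fell below the count filter.

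Of the pathway around the receptors, 50 listed genes were all named in the tables. The signal itself had hardly any source: Tph1 had 0 UMIs in neurons and Tph2, the neuronal enzyme of serotonin synthesis, 7, Slc6a4, the serotonin transporter, 2, and Fev, a transcription factor of serotonin neurons, 3. Of the 8 other receptors listed, Htr1f had 93 UMIs in neurons, Htr3a 47, Htr1d 46, Htr5a 44, Htr6 9, Htr5b 5, Htr2b 3 and Htr3b 1. Against non-neuronal cells 34 pathway genes were tested, and 21 were higher and 10 lower in neurons (median log2 fold change 1.14, against 0.06 over all genes), where 36.9% of all genes tested were called higher and 34.1% lower. The Gs group held 6 higher and 2 lower of 8, with the smallest p for Gnas (2.14) and Gnal (4.43), the G protein subunits that drive adenylyl cyclase. The Gq group held 5 higher of 7 tested, among them Plcb1 (2.24), the phospholipase. The Gi/o group held 4 higher and 3 lower of 7, with Kcnj9 (6.13), a subunit of the potassium channel that these receptors open, and Gnai2 at -1.0. Among partners and editing enzymes, 6 were higher and 1 lower of 8, with Adarb1 (3.06), an editing enzyme of Htr2c transcripts, Dlg4 (3.94), a scaffold of the postsynaptic density, and Mpdz (-1.47), which binds the Htr2c tail. Of the 10 genes listed for synthesis, transport and breakdown, 4 were tested. All 4 were lower in neurons than in the pooled non-neuronal cells, including the monoamine oxidases Maoa (-0.89) and Maob (-1.25). Among the untested ones, Slc18a2 had 92 UMIs in neurons and 4 in non-neuronal cells (10.1 and 1.60 CPM). Gch1, also untested, had 12 and 9 (1.21 and 3.44 CPM). Single glial classes lay on both sides of neurons. Maob was at 16.8 CPM in neurons, 7.25 in oligodendrocytes and 129 in astrocytes, and Ddc at 50.2, 85.3 and 2.25 CPM. Some pathway genes were nearly absent outside neurons: Kcnj9 had 463 UMIs in neurons and 1 in non-neuronal cells, and Dlg4 424 and 5. Such genes passed the filter on low counts through their neuronal counts, as the receptors did. Their rises, and the count of higher genes and the median that include them, describe the difference and are not independent support for it. Others, such as Gnas (37397 and 1457), had many UMIs on both sides.

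Pathway genes were called in subtypes with and without a called receptor. In Ppp1r1b striatal-like neurons 7 pathway genes were higher and 6 lower of 32 tested, where 12.5% of all genes were called in either direction. Gnal (1.54), Adcy5 (1.71), an adenylyl cyclase, and Prkcb (1.55), a protein kinase C, were higher, and Plcb4 (-1.69), S100a10 (-2.65) and Gnas (-0.43) lower. In Crh/Wif1 neurons 3 were higher and 4 lower of 32, where 5.36% of all genes were called. The monoamine oxidases Maob (2.14) and Maoa (1.23) and Gnas (0.59) were higher, while Plcb1 (-0.89), Gnal (-0.48), Gnai1 (-0.42) and Ddc (-1.15) were lower. In Sst/Npy neurons 3 of 34 were higher and none lower, where 2.79% of all genes were called: Mpdz (1.15), Adcy2 (0.80) and Gnai1 (0.33). In Slc17a8 neurons 3 were higher and 3 lower of 32 (3.84% of all genes called). S100a10, a binding partner of the Htr1b receptor, was at -4.22 there (adjusted p = 5.24e-05, edgeR), from 1 UMI against 537. S100a10 did not follow Htr1b in every subtype, being lower in Ppp1r1b striatal-like neurons (-2.65), where Htr1b was called higher. In Tac2/Ebf1 neurons 2 were higher and 1 lower of 34 (2.39% of all genes called), with S100a10 higher (1.06) in 3 of 3 libraries. Where no listed receptor was called, Cck/Greb1 neurons had 1 pathway gene higher and 4 lower of 31 (5.51% of all genes called), with Gnai1 at 0.63, Gnas at -0.75, Gnal at -0.70, Prkcb at -1.11 and Adcy2 at -2.34. Tshz1/Foxp2 neurons had 2 higher and 2 lower of 33 (1.06% of all genes called). Zic1/Zic4 neurons had 1 lower of 34 (1.87% of all genes called), Gnai3, from 0 UMIs against 219. Six3 neurons had 0 called of 34 (0.35% of all genes called). Of the other serotonin receptors, Htr1f was called in 1 subtype, higher in Tshz1/Foxp2 neurons (2.44, SE 0.59, adjusted p = 0.00645, 4 of 4 libraries, where 0.371% of 8618 genes were called higher).

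The genes whose pattern was most like each receptor were found by Pearson correlation of log2(CPM + 1) over 16 classes and subtypes, among 9991 genes with at least 100 UMIs. The classes share libraries and the shift from glia to neurons dominates, so the values are a description. The small Lhx8/Rorb and Prkcd gates entered with 1 library each, where Htr1a and Htr1b were at 0 CPM. Nearest to Htr2c were Ppfia4 (0.987), Fam135b (0.978), Golga7b (0.976), Darc (0.969) and Rhov (0.969). Nearest to Htr1b were Trhr (0.955), the receptor of thyrotropin-releasing hormone, Susd2 (0.946), Ankrd45 (0.940) and Amer3 (0.926). Nearest to Htr7 were Scn9a, a sodium channel gene (0.967), Golga7b (0.958), Amn (0.958) and Rhov (0.952). Nearest to Htr1a were Plek (0.929), Brd3 (0.909), Susd2 (0.907), Cacna1i (0.906) and Zfp92 (0.889).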

How the data were processed

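The authors deposited a table of raw UMI counts per gene and cell barcode for each of the 4 libraries, whole numbers that were not normalised. The submitters' processing notes name bcl2fastq 2.18.0.12, STAR 2.4.2a and Picard 2.2.4 and the builds mm10 and GRCm38; the annotation, the counting strand and the rule for choosing barcodes are not given in the sources used here. Of the gene names, 93.5% were found in GENCODE vM21.

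The receptors, the pathway list and the gates were chosen with earlier results of these data known. A class needed at least 3 UMIs over at least 2 of its markers and 75% of the UMIs of 6 class panels, a transmitter type 2 UMIs and 75%, and a subtype 2 UMIs and over 60% of the UMIs of 11 subtype panels. The marker lists were: neuron Snap25, Syt1, Stmn2, Rbfox3, Snhg11, Celf4, Elavl4, Uchl1; oligodendrocyte Mog, Mag, Ermn, Opalin, Cldn11, Mal, Aspa, Ugt8a, Gjb1; astrocyte Aqp4, Gja1, Gjb6, Agt, Ntsr2, Slc7a10, Fgfr3, Acsbg1, F3, Aldoc; OPC Pdgfra, Cspg4, Gpr17, Neu4, C1ql1; vascular Cldn5, Flt1, Pecam1, Ly6c1, Itm2a, Slco1a4, Egfl7, Vtn, Rgs5, Kcnj8, Acta2, Tagln; microglia C1qa, C1qb, C1qc, Cx3cr1, P2ry12, Tmem119, Csf1r, Ctss. Gates built here can differ from the authors' own cell types.

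Cells were not treated as replicates. Counts were summed per library and class (at least 10 cells, at least 3 libraries) and tested by the quasi-likelihood F-test of edgeR 4.0.16 (R 4.3.3), after TMM scaling and filterByExpr. Library was a block in the model because each library gives both sums of a comparison. Nothing in the labels says that pools were prepared on separate days, so p values measure the spread between these 4 libraries. P values were adjusted over all genes of each fit (threshold 0.05). Named genes were the receptors in every class, called pathway genes (up to 4 a group by smallest p), the 5 largest rises and falls among genes called and changed the same way in 4 libraries of a receptor-positive fit, and the 5 genes with the most similar pattern; a few that these rules name are not reported here. Shares at 1000 UMIs are the mean chance that 1000 UMIs drawn from a cell include the gene. Limits for a count of 0 are 3 counts, and intervals are exact at 95%; both cover counting error only. Scrublet (scanpy 1.11.5) ran at an expected rate of 0.05. The edgeR fit was run on simulated data for some of the comparisons only. Of the subtypes these were Sst/Npy and Six3, and of the receptor-positive fits Htr2c. The simulated libraries differed only in depth, so that run does not cover the spread between real libraries. Alternatives were DESeq2 1.42.0, other cell filters, gates, normalisation, low-count filter, depth matching, no block, and leaving out each library.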

Additional observations from a re-analysis of the deposited data

Results flagged for a closer look

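In 23 sets of 4 library values of a receptor in a class, 2 held a value far from the other 3, where chance gives about 1 in 20 sets (1.15 here). Htr2c in neurons was at 149 CPM in library 3 and at 78.0, 70.9 and 82.4 CPM in libraries 1, 2 and 4. Library 3 was the highest for Htr2c in 4 of the 7 subtypes with 4 libraries, and likewise for Htr1b in 4 of 7, for Htr7 in 1 of 7 and for Htr1a in 2 of 7. Htr2c in Crh/Wif1 neurons was at 71.6 CPM in library 1 and at 28.9, 30.9 and 31.1 CPM in libraries 2 to 4.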

How the results depend on the processing

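The 3 receptors called in neurons against non-neuronal cells entered that test through their neuronal counts, so their calls under 13 alternatives are not read as stability. Of the 6 subtype calls, Htr2c in Sst/Npy neurons passed under 12 of 13 alternatives. Htr2c in Crh/Wif1 neurons passed under 10 of 13, Htr1b in Ppp1r1b striatal-like neurons under 9, Htr1b in Tac2/Ebf1 neurons under 7, Htr7 in Ppp1r1b striatal-like neurons under 5 of 12 and Htr1b in Slc17a8 neurons under 4. With no replicate block (library not in the model, though both sums of a pair come from 1 pool) the 6 subtype calls fell to 0, with adjusted p of 0.244 for Htr2c in Sst/Npy and 0.139 in Crh/Wif1 neurons; the genes called with Htr1b, Htr2c and Htr7 fell from 73, 68 and 81 to 4, 3 and 11. The 6 subtype calls became 2 at the 5% mitochondrial limit, 3 at stricter gate dominance, 2 by DESeq2 and 2 to 4 when a library was left out. Across subtypes, 1 receptor in place of 2 was called at the 5% limit, with 1 more UMI per gate and at stricter dominance, and 1 to 2 with a library left out; Htr1b was then too sparse to be tested. With no low-count filter 5 receptors in place of 3 were called in neurons and 1 in place of 0 in Pnoc-positive neurons (Htr1a, adjusted p = 0.0423). The receptor-positive fits called 34 (Htr1b), 41 (Htr2c) and 43 (Htr7) genes at the 5% limit and 15, 14 and 30 by DESeq2. They called 37 to 95, 47 to 74 and 37 to 69 with a library left out. Htr1b and Htr7 gave 19 and 9 at matched depth, where fewer genes could be tested (4966 and 4371). Htr1b in Tac2/Ebf1 neurons went from 1.11 to -0.021 without library 1, and to 1.35 without library 2. The share of GABAergic neurons with Htr2c was 4.64% at 500 and 15.3% at 2000 UMIs, as shares grow with depth. The causes were otherwise not tested. Depth limits Htr2a, Htr4 and classes of few cells.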
